A study of Mus musculus with 12 samples.

Results

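The genes described here are 36 transcripts of the cell cycle, from the proliferation marker Mki67 and the DNA-unwinding Mcm subunits to the kinases, motors and destruction factors of mitosis. They were taken by gene name from the raw count table of inguinal white adipose tissue (iWAT), which lists 54134 genes. All 36 were listed, and all 36 were among the 15585 genes that passed the filter on low counts. Male C57BL/6J mice were injected at 8 weeks of age with 1e12 genome copies of an adeno-associated virus (AAV) carrying Notum or green fluorescent protein (GFP), driven in the liver by a thyroxine binding globulin promoter. After 4 weeks on chow and a 4 h fast, iWAT was collected at 12 weeks of age from 6 AAV-Notum and 6 AAV-GFP mice, each mouse giving 1 RNA-seq library. Both groups received the same viral dose, so the controls also carry a vector and a foreign protein in the liver. Mice are named by their labels, S_2011 to S_2014, S_2021 and S_2022 for AAV-GFP and S_2031 to S_2034, S_2041 and S_2042 for AAV-Notum.

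A dividing cell copies its DNA in S phase and separates the copies in mitosis, and each step uses proteins whose transcripts are made mostly in cycling cells. Replication genes are switched on by E2F factors at the start of S phase. Mitotic genes are held down in resting cells by the DREAM complex, which binds a promoter element known as CHR. CCAAT boxes are a separate promoter element. Mature adipocytes rarely divide. Lymph nodes lie within the inguinal fat pad, and among lymphocytes, B cells in germinal centres divide quickly.

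Promoter sequences of 31 members were found in RefSeq (build GRCm38.p6; 250 bases before to 50 bases after the gene start). Foxm1, Ccna2, Aurkb, Kif20a and Tpx2 are named only. The letters TTTGAA (the CHR core), CCAAT, and TTTCCCGC or TTTGGCGC (E2F) were searched on both strands. TTTGAA stood in 15 of 31 member promoters (48.4%) and in 17.9% of all 32851 promoters. CCAAT stood in 23 (74.2%, against 37.4% of all), and an E2F motif in 5 (16.1%, against 1.56% of all). All 15 promoters with TTTGAA also held CCAAT, a pair present in 6.95% of all promoters. TTTGAA and the E2F motifs divided by role. Of the 10 replication genes, 5 held an E2F motif (Cdt1, Mcm5, Mcm6, Mcm3 and Cdc6) and 1, Mcm2, held TTTGAA. Of the 21 promoters of other members, 14 held TTTGAA and 0 held an E2F motif. CCAAT was on both sides, in 6 of 10 replication promoters (Mcm3, Mcm5 and Mcm6 among them) and 17 of the 21 others. A match is a run of letters and not a measured binding site. The promoters below show the 2 arrangements and the exception, with motif letters in capitals (on the other strand CCAAT reads ATTGG) and no letters shared between motifs. Mki67 (chr7:135716330-135716629, minus strand) holds 2 copies of TTTGAA and 3 of CCAAT, Cdt1 (chr8:122567765-122568064, plus strand) holds 1 E2F motif, and Mcm2 (chr6:88898731-88899030, minus strand) is the replication gene with TTTGAA.
Mki67: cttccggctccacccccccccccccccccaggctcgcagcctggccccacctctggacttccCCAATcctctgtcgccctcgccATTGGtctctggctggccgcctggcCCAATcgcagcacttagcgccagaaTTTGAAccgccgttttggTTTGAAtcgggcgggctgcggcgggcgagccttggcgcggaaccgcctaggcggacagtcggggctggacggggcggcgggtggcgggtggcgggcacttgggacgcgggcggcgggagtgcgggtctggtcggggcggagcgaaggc
Cdt1: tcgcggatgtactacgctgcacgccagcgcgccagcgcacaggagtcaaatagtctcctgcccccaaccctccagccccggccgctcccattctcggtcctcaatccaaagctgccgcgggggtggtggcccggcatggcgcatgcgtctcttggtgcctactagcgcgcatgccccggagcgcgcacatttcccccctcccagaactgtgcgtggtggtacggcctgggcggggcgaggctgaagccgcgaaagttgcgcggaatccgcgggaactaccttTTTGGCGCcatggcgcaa
Mcm2: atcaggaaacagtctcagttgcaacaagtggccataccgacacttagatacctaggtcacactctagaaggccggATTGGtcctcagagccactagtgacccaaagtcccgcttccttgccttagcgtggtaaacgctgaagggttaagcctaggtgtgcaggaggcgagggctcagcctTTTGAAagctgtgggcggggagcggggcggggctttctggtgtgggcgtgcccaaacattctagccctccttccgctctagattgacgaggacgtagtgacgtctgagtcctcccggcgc

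The libraries held 14711113 to 21618860 counts, and levels are given as CPM, counts per 1000000 library counts, scaled by the trimmed mean of M values. Before the members are compared, 2 AAV-GFP mice stand apart. Mice S_2011 and S_2014 had 0.280 and 0.179 CPM of Cd79a, a signalling chain of the B cell receptor, against 36.3 to 178 CPM in the other 10 mice. All 20 lymphoid markers examined (B and T cell genes) were lower in both of these mice than in every other mouse, and their summed level was 18.4 and 11.6 CPM against 446 to 3040 CPM. Mouse AAV-GFP S_2012 was low in T cell transcripts (Cd3e 2.20 CPM, against 19.4 to 76.3 CPM in the other 9 mice with lymphoid transcripts), and its RNA was isolated 22 days after collection rather than 2. RNA integrity numbers were 5.7 to 7.6 for AAV-GFP, with the lowest in S_2011, and 6.9 to 7.4 for AAV-Notum. Notum itself had 1 to 17 counts in 10 libraries and 560 and 433 in AAV-Notum S_2032 and S_2041, which checks nothing about a transgene expressed in liver. In whole tissue, fewer cells of a type and less RNA per cell cannot be told apart.

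The first question was whether the cell cycle genes differed between the fat of AAV-Notum and AAV-GFP mice. All 36 had a higher fitted level in AAV-Notum, by a median of 0.71 on the log2 scale (0.18 for Tyms to 1.06 for Kif11), while over all genes tested the median was 0.01 and 51.2% were higher. None passed the threshold of 0.05 after adjustment over all genes in edgeR's quasi-likelihood test (lowest adjusted p = 0.153, for Ube2c). At an unadjusted p under 0.05, 7 members were higher (Ccne1, Ccna2, Cdk1, Aurka, Aurkb, Cdc20 and Ube2c) and 0 lower, against 4.64% of all genes higher and 9.54% lower. In DESeq2, 12 members were higher and 0 lower at an unadjusted p under 0.05, where 3.34% of the 31900 genes it tested were higher and 5.87% lower. In that tool 1 member, Ube2c, passed adjustment (adjusted p = 0.0224), where 0.481% of the 16431 genes with an adjusted p were called higher. The adjusted edgeR threshold was passed by 0.0513% of all genes in either direction. The groups overlapped for every member, while 0.398% of all genes were higher and 0.693% lower in AAV-Notum without overlap. The exact permutation test over all assignments of mice to the groups gave p under 0.05 for 8 members, all higher and with no adjustment, where 5.39% of all genes were higher and 7.79% lower.

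The summed level of the 36 members showed how the mice were ordered. It was 131, 182, 343, 116, 301 and 544 CPM in AAV-GFP S_2011, S_2012, S_2013, S_2014, S_2021 and S_2022. It was 608, 470, 386, 583, 339 and 217 CPM in AAV-Notum S_2031, S_2032, S_2033, S_2034, S_2041 and S_2042. The 2 mice without appreciable lymphoid transcripts were lowest, AAV-GFP S_2012 and AAV-Notum S_2042 came next, and AAV-GFP S_2022 lay among the highest AAV-Notum mice. The members moved together. AAV-Notum S_2031 and S_2034 were among the 4 highest mice for all 36 and AAV-GFP S_2022 for 33. Mouse S_2011 was among the 3 lowest for 35 and S_2014 for 34.

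**Figure D1:**
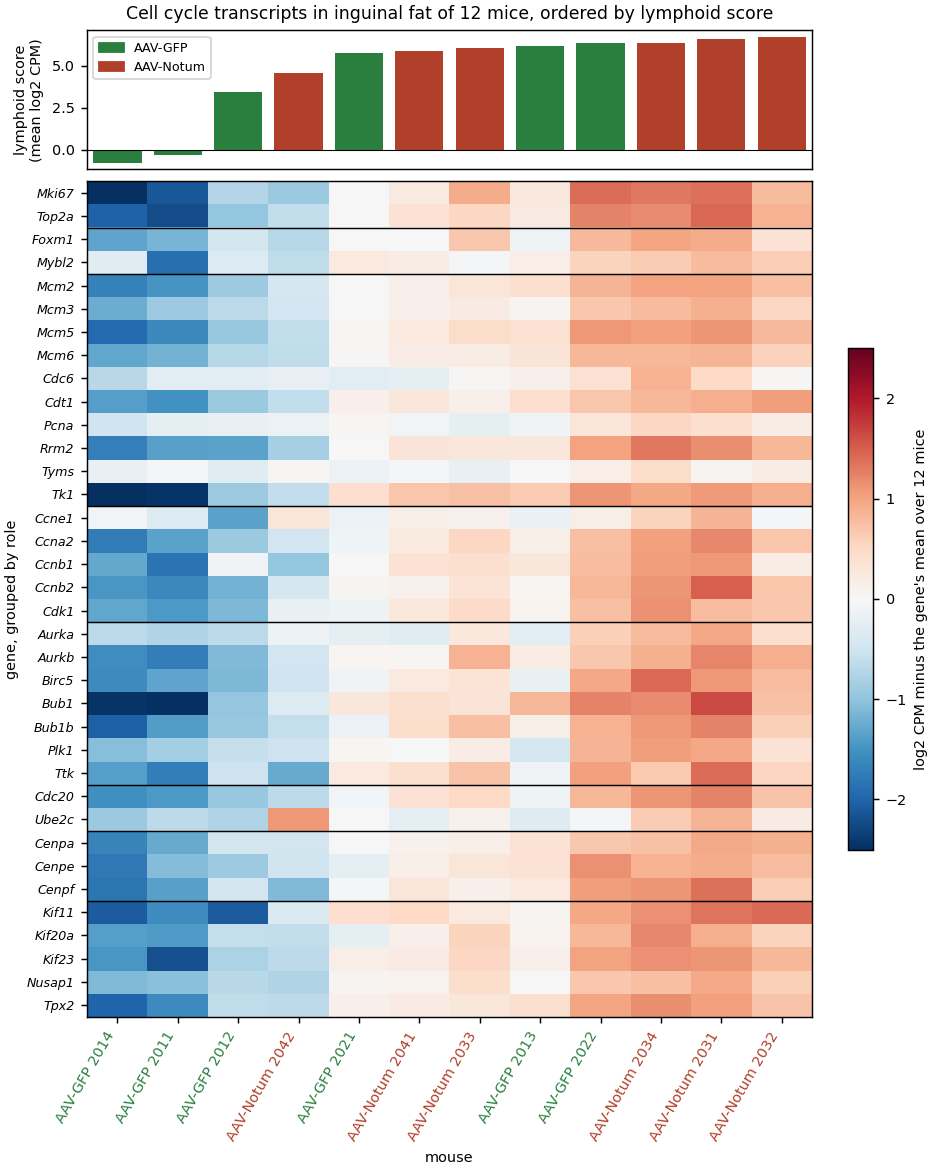
Log2 CPM of each of the 36 genes minus its mean over 12 mice (colour), in mice ordered by lymphoid score, the mean log2 CPM of 20 B and T cell markers (bars; green AAV-GFP, red AAV-Notum). The 2 AAV-GFP mice at the left, with scores of -0.344 and -0.814, had low values of most genes, and Tyms, Pcna, Cdc6 and Ccne1 varied little or out of step.

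Among the proliferation markers, Mki67, a protein of the surface of mitotic chromosomes, was at 6.44, 16.9, 33.6, 4.89, 27.7 and 73.2 CPM in the AAV-GFP mice in the order above. In the AAV-Notum mice it was at 72.7, 48.4, 53.2, 69.7, 32.6 and 14.7 CPM. The highest value belonged to an AAV-GFP mouse, and 1 AAV-Notum mouse lay below 4 of the AAV-GFP mice. The difference was 0.84 ± 0.60 on the log2 scale (SE, edgeR adjusted p = 0.484). Top2a, the topoisomerase that untangles replicated DNA, differed by 0.89 ± 0.55 (edgeR adjusted p = 0.446). The transcription factors of the G2 programme were at lower levels. Foxm1 averaged 4.16 ± 2.34 CPM in AAV-GFP and 6.63 ± 2.53 in AAV-Notum (SD, n = 6), and Mybl2 averaged 2.35 ± 1.04 and 3.16 ± 1.03.

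The 10 replication genes contained both the most abundant members and those that differed least. Per kilobase of exon, Pcna, the sliding clamp of DNA polymerase, had the highest mean level of the 36 (11.0 CPM per kb), followed by Mcm3 (7.85) and Mcm6 (6.92), while Kif11 had the lowest (0.178). Mcm2, a helicase subunit, ranged from 5.36 through a median of 13.3 to 31.0 CPM in AAV-GFP and from 12.8 through 24.9 to 34.7 in AAV-Notum. The ranges overlapped over most of their length. Cdt1, which loads the helicase, Rrm2, the ribonucleotide reductase subunit, and Tk1, thymidine kinase, differed by 0.71 ± 0.41, 0.84 ± 0.49 and 0.73 ± 0.57 on the log2 scale. Tyms, thymidylate synthase, ranged from 5.12 to 7.08 CPM in the controls and from 5.57 to 8.66 CPM under AAV-Notum, a difference of 0.18 ± 0.13. Pcna differed by 0.23 ± 0.16 and Cdc6, which recruits the helicase to origins, by 0.35 ± 0.23. None of the 10 was at an unadjusted p under 0.05 in edgeR or in DESeq2.

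Of the cyclins and Cdk1, 3 of 5 had an unadjusted edgeR p under 0.05 and 4, with Ccnb2, in DESeq2. Ccne1, the G1/S cyclin E1, was at 3.81, 1.91, 4.33, 4.65, 4.38 and 5.36 CPM in AAV-GFP and at 8.74, 4.77, 5.24, 7.13, 5.41 and 5.96 in AAV-Notum. All 6 AAV-Notum mice lay above the AAV-GFP mean and 4 above every AAV-GFP mouse. The lowest value belonged to S_2012 and the next to the lymphoid-poor S_2011, while S_2014, the other lymphoid-poor mouse, was within the range of the remaining AAV-GFP mice. The difference was 0.61 ± 0.23 (p = 0.0219, edgeR adjusted p = 0.281), with an exact permutation p of 0.00649 (two-sided, not adjusted). Ccna2, the S and G2 cyclin, differed by 0.91 ± 0.41 and Cdk1, the mitotic kinase, by 0.87 ± 0.38 (edgeR adjusted p = 0.343 and 0.328). Ccnb2 and Ccnb1, the mitotic cyclins, differed by 0.95 ± 0.45 and 0.60 ± 0.43. Ccnb1 rested on 5 to 42 counts a mouse.

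The 7 genes of mitotic kinases and the checkpoint had a median difference of 0.76. Aurka, of the spindle poles, averaged 2.92 ± 1.19 CPM in AAV-GFP and 4.60 ± 1.55 in AAV-Notum (SD, n = 6), and Aurkb, of the chromosomal passenger complex, 2.71 ± 1.74 and 5.35 ± 2.01. For Aurkb, 4 AAV-Notum mice were above every AAV-GFP mouse. Birc5 (survivin, a partner of Aurkb) and Bub1b (a checkpoint protein) both differed by 0.96 ± 0.45, and Plk1 by 0.63 ± 0.36. Bub1 had 0.224 and 0.298 CPM in mice S_2011 and S_2014 and 0.834 to 5.13 CPM in the other 10. Ttk, the kinase that starts checkpoint signalling, was scarce, at 0.280 to 2.44 CPM.

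The anaphase-promoting complex, the ubiquitin ligase that ends mitosis, was represented by its activator Cdc20 and its E2 enzyme Ube2c. Ube2c was at 3.31, 3.10, 4.15, 2.74, 5.26 and 5.11 CPM in AAV-GFP and at 9.45, 6.02, 5.63, 8.15, 4.49 and 11.0 in AAV-Notum. All AAV-Notum mice but S_2041 were above every AAV-GFP mouse. Its difference of 0.92 ± 0.25 had the lowest p of the 36 (p = 0.00285, edgeR adjusted p = 0.153, exact permutation p = 0.00866). Its highest value came from AAV-Notum S_2042, in which the 36 members summed to 217 CPM and skeletal muscle transcripts were highest (3520 CPM summed, against 9.11 to 743 CPM elsewhere). Without that mouse the difference was 0.77 (edgeR adjusted p = 0.148). Cdc20 differed by 0.96 ± 0.42 (edgeR adjusted p = 0.336).

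None of the centromere and spindle genes had an unadjusted edgeR p under 0.05, and 2 (Kif11 and Kif20a) had such a p in DESeq2. Cenpa, the histone of centromeres, averaged 10.6 ± 5.98 CPM in AAV-GFP and 16.6 ± 5.85 in AAV-Notum (SD, n = 6). Cenpe, a kinetochore motor, and Cenpf, a kinetochore-associated protein, differed by 0.59 ± 0.44 and 0.70 ± 0.49. Kif11, the motor that pushes spindle poles apart, had the largest fitted difference of the 36 (1.06 ± 0.53) on 4 to 51 counts a mouse. Kif20a and Kif23, motors of cytokinesis, both differed by 0.79, with SE of 0.40 and 0.48. Nusap1 and Tpx2, which bind spindle microtubules, differed by 0.65 ± 0.35 and 0.67 ± 0.47.

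The next question was how the members' levels went with lymphoid transcripts such as Cd79a. In 30 of 36 members, mice S_2011 and S_2014 were both below all 10 others, as were 19.7% of all genes. The 6 others were Mybl2, Tyms, Ccne1, Aurka, Ube2c and Kif11. The median of the 10 mice was 3.44 times the mean of these 2 for the median member. This ratio was over 4 for 11 members and highest for Bub1 (9.34), Tk1 (9.29) and Mki67 (7.24). It was lowest for Tyms (1.09), Ccne1 (1.25) and Pcna (1.28), whose transcripts were at nearly the same level in the mice where lymphoid transcripts were scarce.

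**Figure D2:**
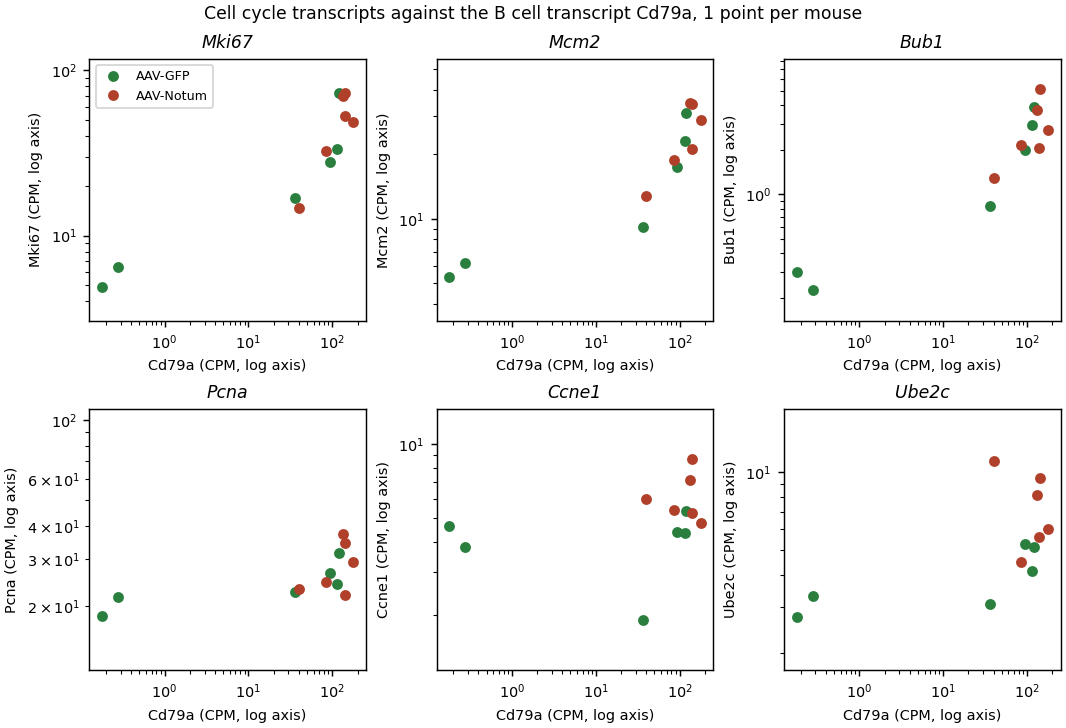
CPM of 6 members (vertical, log axis) against CPM of Cd79a (horizontal, log axis), 1 point a mouse, green AAV-GFP and red AAV-Notum. Mki67, Mcm2 and Bub1 were low in both mice with under 1 CPM of Cd79a, Pcna differed far less, Ccne1 was lowest in AAV-GFP S_2012, and Ube2c was highest in AAV-Notum S_2042, at 40.1 CPM of Cd79a.

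Within the 10 mice with lymphoid transcripts, the slope of each gene on the lymphoid score was fitted with the group in the model. The score, the mean log2 CPM of the 20 markers, ran from 3.43 to 6.74 in these mice. All 36 members had a positive slope (median 0.59 log2 units per unit of score), and 31 passed edgeR's adjusted threshold, where 21.6% of all genes had a positive and 18.0% a negative slope past it. The 20 markers that make up the score had a median slope of 0.90 and all genes -0.01. Tk1 had a slope of 0.68 ± 0.08, Mcm5 of 0.67 ± 0.09 and Kif11 of 0.92 ± 0.13 (SE, edgeR adjusted p = 1.20e-04, 2.55e-04 and 4.42e-04). The 5 that did not pass were Cdc6 (0.23 ± 0.12), Pcna (0.17 ± 0.07), Tyms (0.13 ± 0.07), Ccnb1 (0.39 ± 0.17) and Ube2c (0.04 ± 0.14). Without AAV-Notum S_2042, the slope of Ube2c was 0.28 ± 0.13 (edgeR adjusted p = 0.148).

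The slope leaned on the mice at the low end. Without AAV-GFP S_2012 and AAV-Notum S_2042, the 2 farthest from the median score, all 36 slopes were still positive with a median of 0.85, but 5 passed (Mcm2, Mcm5, Cdt1, Cenpa and Cenpe), where 7.65% of all genes did, and 21 were at an unadjusted p under 0.05, where 16.0% of all genes were. Other tissue transcripts moved along the same score. Skeletal muscle markers (7 of 7 past the threshold) had a median slope of -2.21 and adipocyte markers (7 of 8) of -0.32. Without AAV-Notum S_2042, 3 of 7 and 2 of 8 were past it downward. In all 10 mice, 5 of 6 endothelial markers were past it downward (median -0.30). Of 8 adipose progenitor markers, 4 were past it downward and 1 upward (median -0.15). Of 10 macrophage markers, 0 were past it upward and 1 downward in edgeR, with 0 upward and 1 downward at an unadjusted p under 0.05, and their median was 0.08. The part of these changes in tissue composition in the members' slopes was not tested.

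The spread between the 10 mice, after group means were removed, had a median SD of 0.65 log2 CPM over the members and 0.28 over all genes. With the lymphoid score also removed it was 0.34 over the members and 0.20 over all genes. The SD was smaller in 35 of 36 members, Ube2c excepted (0.44 before, 0.46 after), and in 78.0% of all genes. It fell below 50% of its starting value in 15 members, among them Tk1 (0.71 to 0.19), Cdt1 (0.65 to 0.21) and Kif11 (0.85 to 0.29). A score of B cell markers alone left a median of 0.36 and one of T cell markers 0.35 (0.20 and 0.21 over all genes). A score of 7 germinal centre B cell markers, tried after the data were seen, left 0.23. It left under 50% in 26 members and the smallest SD of these scores in 32 of 36. Over all genes its median, 0.19, was also the lowest of these scores. No share of all genes was computed for the counts of 15, 26 and 32 members. On the germinal centre score 34 slopes passed edgeR's adjusted threshold, all but Tyms and Ube2c, where 22.6% of all genes had a positive slope past it. Its list shares no gene with the members. Bcl6 and S1pr2 on it were at 29.6 and 13.6 CPM in S_2011 and at 24.4 and 7.39 CPM in S_2014. B cell transcripts were scarce in these mice, so the score is not made of B cell transcripts alone. Gpr183 and Basp1 on the list are not particular to germinal centre B cells. Since all scores come from the same libraries as the members, these values describe how the transcripts moved together and not which cells made them.

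**Figure D3:**
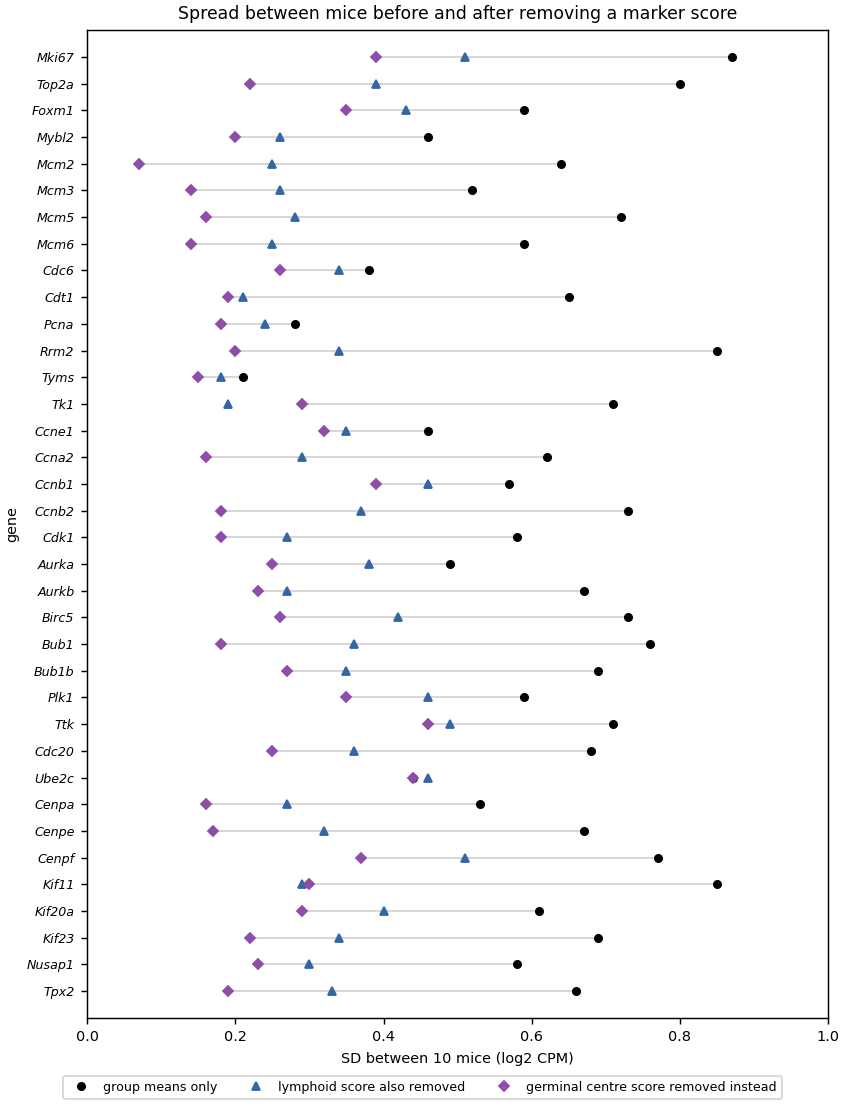
SD between 10 mice of each gene (horizontal, log2 CPM) with group means removed (black circles), with the lymphoid score also removed (blue triangles) and with the germinal centre score removed in its place (purple diamonds). The median over the 36 genes was 0.65, 0.34 and 0.23, and Ube2c hardly moved.

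The difference between groups was then refitted with lymphoid transcripts taken into account in separate ways. Without mice S_2011 and S_2014, all 36 members were still higher in AAV-Notum, with a median of 0.35 in place of 0.71. Only Ccne1 (0.63 ± 0.28, adjusted p = 0.683) and Ube2c (0.75 ± 0.27, adjusted p = 0.559) were at an unadjusted p under 0.05 in edgeR, where 2.12% of all genes were higher and 4.99% lower. With the lymphoid score as a covariate in all 12 mice, 30 members were higher and the median was 0.12. Ube2c was the only one at an unadjusted p under 0.05 (0.75 ± 0.26, edgeR adjusted p = 0.430), where 4.25% of all genes were higher and 4.99% lower. Without AAV-Notum S_2042 it was at 0.49 ± 0.23 and no member was at that p (edgeR adjusted p = 0.608). Mki67 was at 0.04 ± 0.30, and Mybl2, Mcm6, Tk1, Bub1, Cenpe and Tpx2 were between -0.04 and -0.02. With both changes, 23 members were higher and the median was 0.06. Ccne1 was then at 0.52 ± 0.21 (edgeR adjusted p = 0.403) and Ube2c at 0.74 ± 0.27 (edgeR adjusted p = 0.359). Both were at an unadjusted p under 0.05, where 823 of all 15585 genes were higher and 952 lower. Under the covariate alone in all 12 mice, Ccne1 was at 0.54 ± 0.27, not at an unadjusted p under 0.05 (edgeR adjusted p = 0.567). With Cd79a alone as the covariate the median was 0.20, with 36 of 36 higher. With the RNA integrity number as the covariate it was 0.56. The lymphoid markers themselves had a median group difference of 0.99, which was 0.41 without mice S_2011 and S_2014, and 0 of 20 were at an unadjusted p under 0.05 in either edgeR or DESeq2. Other tissue markers also had fitted differences in one direction in the same 12 mice. Skeletal muscle was higher in 7 of 7 (median 1.40, none at an unadjusted p under 0.05), a direction that AAV-Notum S_2042 alone decided, since without it 7 of 7 were lower (median -1.07). Hepatocyte was lower in 7 of 8 (median -2.79, from -4.53 without AAV-Notum S_2041 to -1.17 without AAV-GFP S_2013). Adipocyte was lower in 7 of 8 (median -0.29). At an unadjusted p under 0.05 in edgeR, 2 markers were lower in each of the hepatocyte, macrophage, adipose progenitor and endothelial lists. Their part in the members' difference was not tested.

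**Figure D4:**
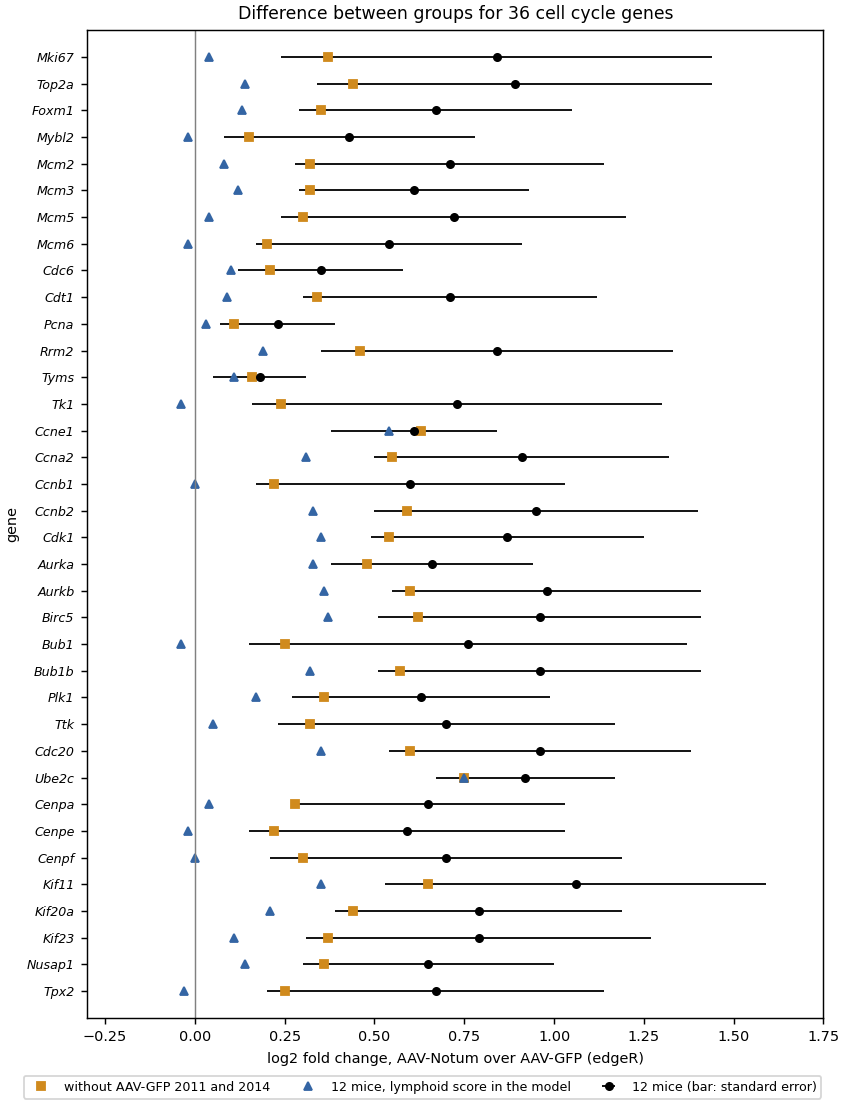
Log2 fold change of AAV-Notum over AAV-GFP for the 36 genes in 12 mice (black, bars are standard errors), without mice S_2011 and S_2014 (orange squares) and with the lymphoid score in the model (blue triangles). The medians were 0.71, 0.35 and 0.12, and the 3 values lay closest together for Tyms, Ccne1 and Ube2c.

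The count of members at an unadjusted p rested on single mice in both directions. It was 29 without AAV-GFP S_2022, 15 without AAV-Notum S_2042 and 1 without AAV-Notum S_2031, where 10.4%, 6.87% and 3.25% of all genes were higher at the same p. It was 2 without AAV-GFP S_2011, S_2012 or S_2014 or without AAV-Notum S_2032 or S_2034, and 3 without AAV-GFP S_2021 or AAV-Notum S_2033, with 2.82% to 4.72% of all genes higher in these fits. The median difference stayed between 0.54 and 1.06 and no member passed adjustment in edgeR in any of these fits.

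Beyond the members, 126 further cell cycle genes were listed by function, of which 123 were tested. At an unadjusted p under 0.05 in edgeR, 18 were higher and 1, Cdkn1c, lower in AAV-Notum (4.64% of all genes were higher and 9.54% lower), and 0 passed adjustment. The fitted level was higher for 110 of 123 with a median of 0.44, and for 51.2% of all genes. Nearly all cyclin and Cdk genes (12 of 12, median 0.24), mitotic genes (52 of 54, median 0.65) and replication genes (28 of 30, median 0.40) had higher values. Cdk inhibitors with pocket proteins (7 of 11, median 0.17) and E2F and DREAM subunits (11 of 16, median 0.12) were mixed. On the lymphoid score, 75 had a positive and 6 a negative slope past edgeR's adjusted threshold, as did 21.6% and 18.0% of all genes.

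Cdk2, the partner of cyclins E and A, averaged 39.2 ± 2.12 CPM in AAV-GFP and 45.9 ± 2.34 in AAV-Notum (SD, n = 6). The groups did not overlap, the difference was 0.23 ± 0.06 (edgeR adjusted p = 0.152), and it was 0.19 without the lymphoid-poor mice, with a slope on the score of 0.04. Lin9, a subunit of the DREAM and MYB complexes, also had no overlap (8.59 ± 1.32 and 10.8 ± 0.465 CPM, difference 0.34 ± 0.11, edgeR adjusted p = 0.216). Its difference was 0.22 without the lymphoid-poor mice and 0.19 with the score in the model. Cdc25b, a phosphatase that activates Cdk1, differed by 0.67 ± 0.19 (edgeR adjusted p = 0.170), by 0.46 without these mice and by 0.37 with the score, on which it had a slope of 0.21 (edgeR adjusted p = 0.0142). Cdkn1c, the Cdk inhibitor p57, was at 33.6 ± 12.6 CPM in AAV-GFP and 20.2 ± 3.87 in AAV-Notum (-0.73 ± 0.23, edgeR adjusted p = 0.214). It also had a negative slope on the lymphoid score (-0.35, edgeR adjusted p = 0.00219). Its difference was -0.55 without the lymphoid-poor mice and -0.35 with the score in the model. The D cyclins, which respond to growth signals, were abundant and differed little. Ccnd2 was at 317 ± 26.2 and 333 ± 35.3 CPM, and Ccnd1 and Ccnd3 differed by 0.24 ± 0.26 and 0.03 ± 0.10, values that were -0.02 and -0.04 without mice S_2011 and S_2014 and -0.18 and -0.10 with the score in the model. Cdkn1a (p21), Rb1 and E2f6 differed by -0.35 ± 0.22, -0.19 ± 0.13 and -0.22 ± 0.14, E2f6 turning to 0.03 with the score. Myc differed by 0.42 ± 0.26, and by -0.0047 with the score.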

How the data were processed

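RNA-seq was done on iWAT of 12 mice, 6 per group, with separate mice as replicates. Per the labels, the authors aligned reads with STAR 2.3.1 to mm10 and used DESeq2; the counting annotation is not given in the sources used here. The deposited tables hold raw counts per gene and log2 values that the authors made from reads divided by a size factor per sample, plus 1; undoing the log2 and the size factors gave whole reads for 100% of values within 0.01, which served as an alternative. These reads equalled the raw counts in all mice for 6725 of the 31137 genes in both tables, so both tables do not hold the same counts. Levels and tests here used the deposited counts with edgeR 4.0.16 in R 4.3.3 (filterByExpr, minimum count 10 and total 15, TMM, quasi-likelihood test, two-sided, Benjamini-Hochberg over 15585 genes). SE is the fold change over the root of F. Log2 CPM was computed here with a prior count of 2. Named genes were all 36 members, 3 lymphocyte markers, the 3 other pathway genes of lowest p in each direction, and Ccnd1, Ccnd2, Ccnd3, Cdkn1a, Rb1 and Myc; 1 further marker gene is not reported here. The lymphoid score is the mean log2 CPM of the 20 lymphoid markers. Slopes used 10 mice, without AAV-GFP S_2011 and S_2014. The permutation tests were exact (smallest p 0.00216). Alternatives used DESeq2 1.42.0 and limma 3.58.1 (voom), other scaling and filters, covariates and each mouse left out. The scripts were tested on simulated data. The members and lists were chosen with earlier results of these data known. Markers of macrophages, plasma cells, adipose progenitors, endothelium, hepatocytes, muscle and epithelium were also listed; summed levels were 429 to 809, 303 to 586, 959 to 1580, 546 to 919, 1570 to 8410, 9.11 to 3520 and 0.0596 to 3.26 CPM.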

Additional observations from a re-analysis of the deposited data

Results flagged for a closer look

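Single mice stood far from the rest of their group for 2 of the named genes. Tk1 was at 2.98 CPM in AAV-Notum S_2042, with the other 5 AAV-Notum mice at 7.44 to 9.55 CPM. Aurka was at 5.23 CPM in AAV-GFP S_2022, with the other 5 AAV-GFP mice at 2.07 to 2.95 CPM. In 100 groups of 6 examined, about 5 such values arise by chance (1 in 20). AAV-Notum S_2042 was also low in lymphoid transcripts (684 CPM summed) and AAV-GFP S_2022 was high (2170 CPM). The part of these levels in the Tk1 and Aurka values was not tested.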

How the results depend on the processing

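No paired analysis was possible because the mouse numbers are unique and shared by no 2 mice. Of 284 member values under other tools, scalings, filters and the 2 omitted mice, 0 changed direction and 1 crossed the adjusted threshold (Ube2c in DESeq2). With the lymphoid score in the model, Mybl2 (-0.02), Mcm6 (-0.02), Tk1 (-0.04), Bub1 (-0.04), Cenpe (-0.02), Tpx2 (-0.03), E2f6 (0.03), Ccnd1 (-0.18), Ccnd3 (-0.10) and Myc (-0.0047) turned direction, and with Cd79a E2f6 (0.0036), Ccnd1 (-0.12) and Ccnd3 (-0.08). Without AAV-GFP S_2011 and S_2014, Ccnd1 was -0.02 and Ccnd3 -0.04. The cause was not tested. Members at an unadjusted p under 0.05 numbered 12 in DESeq2 (3.34% of all genes higher), 15 in limma-voom (9.38%), 2 with the RNA integrity number (2.98%), 1 with the lymphoid score (4.25%), 2 with Cd79a (3.46%) and 2 without AAV-GFP S_2011 and S_2014 (2.12%), and 1 passed adjustment in DESeq2. The other pathway genes higher numbered 30, 40, 11, 5, 4 and 6 in the same settings, 1 (Cdk2) passed adjustment in DESeq2, and 0 were lower with the lymphoid score or Cd79a. Positive slopes past the threshold numbered 5 without the 2 mice farthest from the median score, with a median slope of 0.85. The median slope was 0.30 in all 12 mice, 0.76 on Cd79a and, on scores chosen after seeing the data, 0.74 (B cell), 0.43 (T cell) and 1.25 (germinal centre). With the score and without the 2 AAV-GFP mice, also chosen after seeing the data, 2 members were higher at an unadjusted p under 0.05. In that fit, 823 of all 15585 genes were higher at the same p and 952 lower. With each mouse left out in turn, members at an unadjusted p numbered 1 to 29 (2.82% to 10.4% of all genes, median difference 0.54 to 1.06). The other pathway genes numbered 6 to 65 higher and 1 to 2 lower (median 0.34 to 0.61). Of these, 0 to 1 passed adjustment, Cdc25b without AAV-GFP S_2022. Ccnd3 ranged from -0.02 to 0.07. Positive slopes past the threshold numbered 24 to 31 (median 0.51 to 0.79). Members at an unadjusted p with the score in the model numbered 0 to 4 (0 without AAV-Notum S_2042, 4 without AAV-GFP S_2022, median 0.03 to 0.36). Shares of all genes were not counted for these slope fits and fits with the score. Cd79a and Cd3e, which are part of the score, are not given with a covariate made from lymphoid genes. Counts cover 1 library a mouse, and Ccnb1, Bub1, Ttk and Kif11 rested on 4 or 5 counts in their lowest mouse.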
